A study of Homo sapiens with 30 samples.

Results

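The histone and tRNA gene cluster of the short arm of chromosome 6 was described through the ChIP-seq peak regions that lie in it. Members were all regions whose start fell between 25.5 Mb and 28.47 Mb on chromosome 6 of build hg19 in any of 8 deposited peak lists, and rows of 1 list that shared a base were joined into 1 region. This gave 184 regions, 85 of CTCF, 73 of TET1, 21 of MBD3 and 5 of TET2, out of 70565 regions in all 8 lists. All 184 came from cells without auxin, and none of the 4 lists from cells with auxin held a region there. The rule used where regions were called and nothing else, so the number of members is a description and was not tested.

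The cells were HEK293T, a long-established line from human embryonic kidney, edited at CTCF so that auxin can trigger degradation of the protein. Every group carried the same edit and the same pair of transfected plasmids, pcDNA3.1-ScFv-miniIAA7-mEGFP and pcDNA3.1-AtAFB2-mCherry, which supply the degradation system. The auxin was indole-3-acetic acid (IAA), given at 0.5 mM for 72 h or left out of the medium, and 1 label names DMSO for cells without it. The sources used here do not say whether the edited cells are 1 clone. With 4 antibodies (CTCF, MBD3, TET1, TET2) and an input in each condition there were 10 groups of 3 samples, and each list pools the 3 samples of its group. No list therefore has an error between samples, no difference between conditions or places was tested, and the reads behind each list are unknown.

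Histone genes of this cluster supply most of the histones that package newly copied DNA, and they are transcribed together when cells replicate. The tRNA genes among them are transcribed by RNA polymerase III from promoters inside the genes. CTCF is a zinc-finger protein that binds a long DNA motif and stops cohesin, which anchors chromatin loops. TET1 and TET2 oxidise methylated cytosine, and MBD3 belongs to NuRD, a complex that remodels nucleosomes and removes acetyl groups from histones. In RefSeq's list of chromosome 6 genes, ordered in build GRCh38.p14, 55 protein-coding histone genes stand between H2AC1 and H2BC17. They comprise 6 H1, 12 H2A, 15 H2B, 10 H3 and 12 H4 genes, in 5 runs uninterrupted by another protein-coding gene, the longest of 23. Another 93 of the chromosome's 149 tRNA genes stand in the same stretch, with 19 further protein-coding genes. That table is of another build than the peak lists, so no peak region was assigned to a gene, and the name of the cluster rests on its position alone.

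Regions of all 4 antibodies lay closer together in the cluster than on the rest of chromosome 6. TET1 had 24.6 regions per Mb in the 2.97 Mb of the cluster and 5.33 per Mb elsewhere on the chromosome. The same figures were 28.6 and 14.3 for CTCF, 7.07 and 3.17 for MBD3, and 1.68 and 0.536 for TET2. These densities set the cluster beside the rest of its own chromosome only. No density was computed for gene-dense places, so whether the cluster is denser than those was not tested. The balance of the antibodies differed too: on the rest of the chromosome CTCF regions outnumbered TET1 regions 2396 to 895, and in the cluster 85 to 73. In the adjoining major histocompatibility region they did so 117 to 21, and on gene-dense chromosome 19 1738 to 731. The cluster held 0.449% of the TET1 list and 0.198% of the CTCF list.

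Joined across the 4 antibodies, the 184 regions formed 121 sites. CTCF alone was the most frequent kind, at 41 sites, followed by CTCF with TET1 at 28 and TET1 alone at 27. CTCF, MBD3 and TET1 were called together at 12 sites, MBD3 alone at 6 and MBD3 with TET1 at 2. Each remaining kind was rare: CTCF with TET1 and TET2 at 2 sites, and CTCF with TET2, TET1 with TET2, and all 4 antibodies at 1 site each. TET1 alone made up 22.3% of the sites of the cluster and 2.04% of the 47344 sites of the whole lists, where CTCF alone made up 58.4% and in the cluster 33.9%. CTCF with TET1 took nearly the same share in both, 23.1% and 23.7%.

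**Figure D1:**
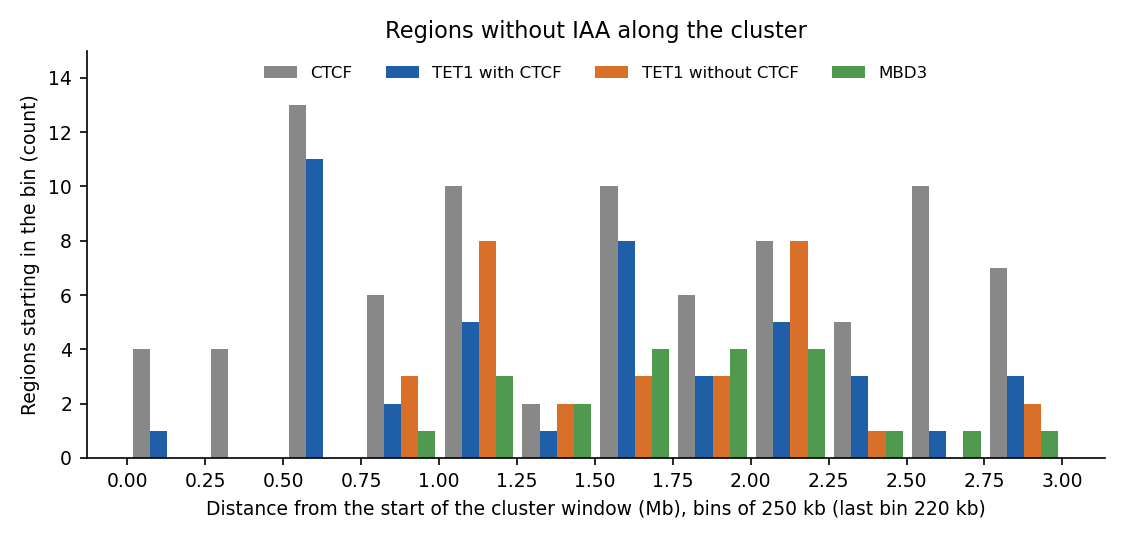
Number of regions without IAA that start in each 250 kb bin (the last is 220 kb), against the distance of the bin from the start of the window in Mb, for CTCF, TET1 with CTCF, TET1 without CTCF and MBD3. TET1 without CTCF peaks at 8 regions in the bins at 1 and 2 Mb, while the bin at 0.5 Mb has 11 TET1 regions, all with CTCF.

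The 4 antibodies were spread unevenly along the cluster. The first 500 kb held 8 CTCF regions and 1 TET1 region. The bin from 26000000 to 26249999 was the densest for CTCF, with 13 regions, and 11 of these carried TET1, with no TET1 region away from CTCF. The pattern differed in the bins from 26500000 to 26749999 and from 27500000 to 27749999, which were the densest for TET1, with 13 regions each. In both, 8 of the 13 TET1 regions had no CTCF. MBD3 reached 4 regions per bin between 27000000 and 27749999, and TET2 was limited to 2 regions each in the third and the eighth bin and 1 in the fifth. The bin from 28000000 to 28249999 held 10 CTCF regions but just 1 TET1 region, and its CTCF regions were weak, at a median fold enrichment of 6.10.

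CTCF regions of the cluster ranged from 2.68- to 51.5-fold enrichment, a ratio set by the authors' peak caller and used here only within 1 list. Their median fold was 11.1 (quartiles 6.33 and 26.4), against 13.6 (7.43 and 24.2) outside the cluster. Each region was also placed by its percentile, the share of its whole list with an equal or lower fold. The median percentile was 42.2, and 12 of the 85 ranked within the top 10% by fold while 22 ranked within the bottom 20%. The cluster therefore held strong and weak CTCF regions, with a median somewhat below that of the list. This place of the median depends on the weak regions: among CTCF regions of at least 5-fold, ranked among themselves, the median percentile was 55.1. Widths had a median of 296 bp in the cluster and 276 bp outside.

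The 3 strongest CTCF regions differed in what they shared. The strongest, at 27046601 to 27047053, had 51.5-fold enrichment with a −log10 q of 170, ranked 802 of 42925 and carried TET1 but not MBD3. The next, at 27156372 to 27157004, had 50.9-fold enrichment, ranked 847 and carried TET1 and MBD3. The third, at 26066184 to 26066448, had 49.0-fold enrichment, ranked 1056 and carried TET1 alone. By q the highest was another region, at 26341823 to 26342146, with a −log10 q of 294, 45.2-fold enrichment, TET1 and MBD3. The weakest member by fold, at 28109599 to 28109782, stood at 2.68-fold and carried none of the others.

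Of the 85 CTCF regions, 43 shared a base with TET1, or 50.6% (Wilson 95% interval 40.2% to 61.0%), where 34.4% of the whole CTCF list carried it. On gene-dense chromosome 19 the share with TET1 was 40.3%, on the rest of chromosome 6 33.7% and in the major histocompatibility region 17.1%. MBD3 was called at 13 of 85, or 15.3% (9.16% to 24.4%), against 8.67% of the list, and TET2 at 4, against 1.1%. In the same 3 places the share with MBD3 was 8.63%, 10.1% and 2.56%. The intervals given for the cluster cover counting error over regions only. All 13 CTCF regions with MBD3 also carried TET1, as did 90.7% of such regions in the whole list. None of the 3 other antibodies was called at 41 CTCF regions, 48.2% (37.9% to 58.7%), against 64.4% of the list.

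Strong CTCF regions carried TET1 far more often than weak ones, in the cluster as in the whole list. Median enrichment was 25.03-fold (quartiles 13.3 and 37.8) where TET1 shared the CTCF region and 7.68-fold (5.07 and 10.8) where it did not. With TET1 and MBD3 the median was 29.8, and with TET1 but not MBD3 it was 24.01. All 12 CTCF regions in the strongest 10% of the list carried TET1, a share that stood at 96.7% over the whole list. In the weakest 20%, 6 of 22 did, among them 1 at 3.75-fold enrichment, at 27721902 to 27722081.

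**Figure D2:**
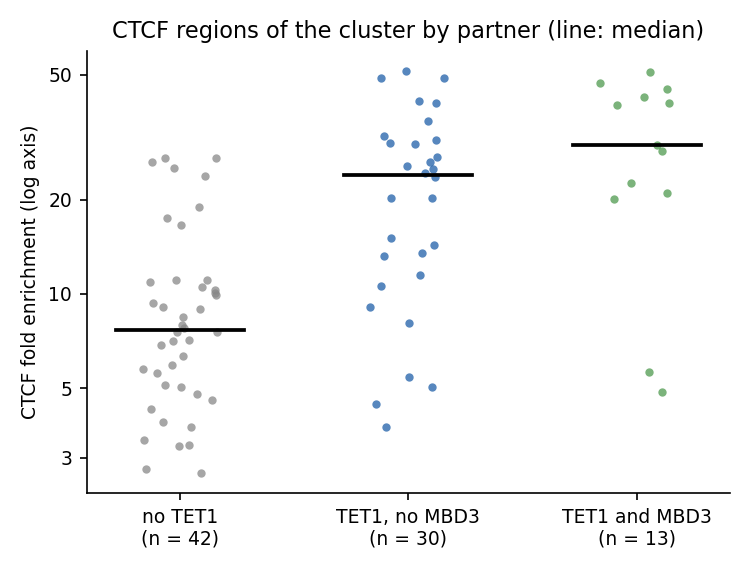
Fold enrichment of each of the 85 CTCF regions of the cluster (log axis), grouped by whether TET1 and MBD3 shared the region, with the median of each group as a line. The 42 regions without TET1 reach 27.2-fold, while the groups with TET1 extend to 51.5-fold and also hold a few regions under 6-fold.

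The CTCF list was next divided by fold into 5 classes of about equal size, class 1 the weakest, to set cluster regions beside others of like strength. In class 1, 6 of 22 cluster regions carried TET1, or 27.3% (13.2% to 48.2%), against 6.59% of the class in the whole list. In class 2 the figures were 2 of 17 (3.29% to 34.3%) against 4.56%, and in class 3, from 10.6- to 17.2-fold, 6 of 10, or 60% (31.3% to 83.2%), against 15.5%. In class 4 they were 10 of 15 (41.7% to 84.8%) against 53.8%, and in class 5 19 of 21, or 90.5% (71.1% to 97.3%), against 91.1%. The value of the whole list lay below the interval of the cluster in classes 1 and 3 and within it in classes 2, 4 and 5. Such intervals count regions as if independent, so this is a description and not a test.

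**Figure D3:**
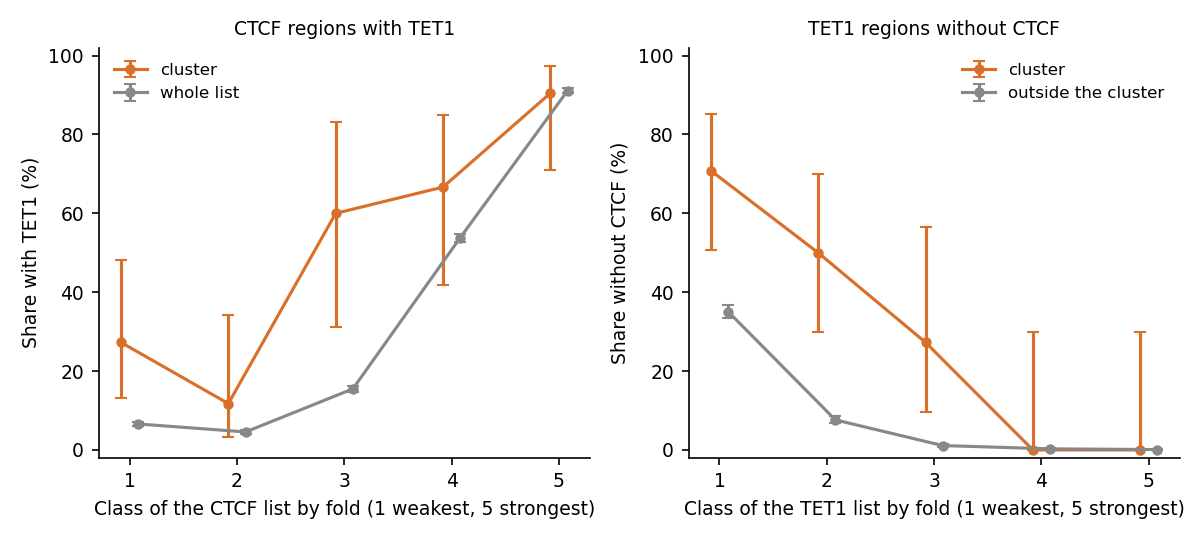
Left, percent of CTCF regions with TET1 in each of 5 classes of CTCF fold (1 the weakest), in the cluster and in the whole list. Right, percent of TET1 regions without CTCF in each of 5 classes of TET1 fold, in the cluster and outside it. Bars are Wilson 95% intervals. On the right no cluster region lacks CTCF in classes 4 and 5, and in classes 1 to 3 the cluster points lie above the others.

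CTCF regions came in close pairs at several places. The distance from a CTCF summit to the next had a median of 20.2 kb in the cluster (quartiles 9.01 and 46.5), against 38.6 kb on the rest of chromosome 6 and 33.5 kb outside the cluster on all chromosomes. Of the 84 distances 10 were 2 kb or less, or 11.9%, against 5.46% outside. CTCF regions were also denser here, at 28.6 per Mb against 14.3 on the rest of chromosome 6. A higher density shortens distances by itself, and pairing beyond that was not tested. The closest summits were 441 bp apart, in regions at 28323547 to 28323767 and 28323954 to 28324257, with 10.6- and 25.6-fold enrichment, and TET1 was called at both.

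In these 10 pairs TET1 was called at the stronger CTCF region in 9 and at the weaker in 6. Outside the cluster the shares over 2335 such pairs were 55.6% and 20.0%. The pairs were not matched for CTCF fold. Its median was 25.02 at the stronger regions in the cluster and 20.68 outside, and 5.622 and 6.955 at the weaker. At 26595997 to 26596395 a CTCF region of 42.6-fold enrichment carried TET1 and MBD3, and its neighbour at 26597073 to 26597274, with 4.29-fold, carried neither. By contrast, the regions at 27655168 to 27655576 and 27655950 to 27656174, with 21.0- and 5.64-fold enrichment and summits 641 bp apart, each carried TET1 and MBD3 regions of their own. The pair at 26064807 to 26065133 and 26066184 to 26066448 was strong on both sides, at 35.5- and 49.0-fold, with TET1 at each. The pairs thus differed from one another in whether the weaker site carried TET1. With 10 pairs the intervals were wide, 59.6% to 98.2% for the stronger sites and 31.3% to 83.2% for the weaker.

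TET1 regions that shared a base with CTCF lay on its summit. Their summits were a median of 9 bp from the CTCF summit (quartiles 5 and 21), and 41 of the 43 lay within 50 bp. Outside the cluster the median was 7 bp. Of the 2 exceptions, 1 lay at 27721932 to 27722092, 55 bp away. The other, at 27473445 to 27473784, lay 289 bp away. The 43 regions had a median TET1 fold of 7.44 (quartiles 5.52 and 9.13), near the 7.61 of TET1 at CTCF outside the cluster. The 3 highest TET1 regions of the cluster, at 27046685 to 27046907, 26341834 to 26342124 and 26066206 to 26066507, had 14.1-, 13.9- and 13.7-fold enrichment and each sat on CTCF of at least 45.2-fold.

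Over the 43 shared regions the fold of TET1 rose with that of CTCF, with a Spearman rho of 0.667, against 0.778 over the 14755 shared regions outside. This is a description across sites that share the same pair of pooled lists. At most sites TET1 stood lower in its list than CTCF did in its own. The reverse held at 7 of the 43, or 16.3%, against 9.75% outside. The widest gap was at 27473445 to 27473784, where TET1 had 11.4-fold enrichment and a percentile of 85.6 while CTCF had 4.88-fold and a percentile of 9.44. Next was 26533048 to 26533324, with TET1 at 8.88-fold and a percentile of 67.6 over CTCF at 4.45-fold and a percentile of 7.003. A percentile is a place within 1 list and the lists differ in length, so no difference in level is read from it.

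**Figure D4:**
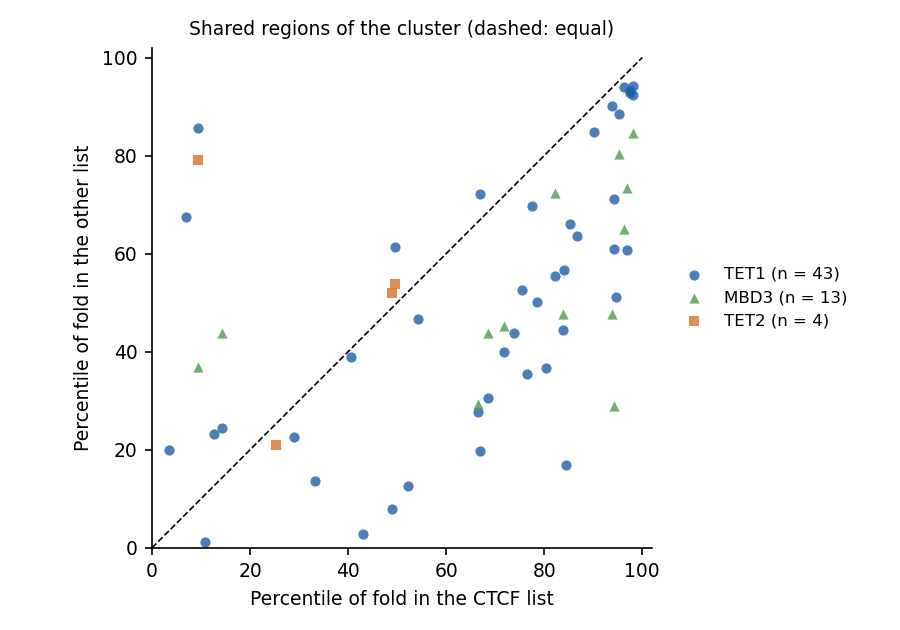
Percentile of fold within the TET1, MBD3 or TET2 list against the percentile of the CTCF region it shares, for the 43, 13 and 4 shared regions of the cluster. The dashed line marks equal percentiles. Most TET1 and MBD3 points lie below it and 3 of the 4 TET2 points above it. Far above it, over CTCF regions with percentiles under 10, lie TET1 regions with percentiles of 85.6 and 67.6 and a TET2 region with a percentile of 79.1.

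TET1 regions without CTCF numbered 30 of the 73 in the cluster, or 41.1%, against 8.91% of the whole TET1 list. The share at CTCF was accordingly 58.9% (47.4% to 69.5%), and outside the cluster 91.2%. On the rest of chromosome 6 it was 90.5%, in the adjoining major histocompatibility region 20 of 21, and on gene-dense chromosome 19 96.7%. A CTCF site too weak to be called cannot be told apart from none in these lists, so "without CTCF" means that no CTCF region was called there. The 30 regions came to 10.1 per Mb, against 0.506 per Mb on the rest of chromosome 6, and made up 2.07% of the 1448 such regions in the list. TET1 with CTCF stood at 14.5 and 4.82 per Mb.

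Those 30 regions were weak to middling in the TET1 list, though less weak than their counterparts elsewhere. Their fold ran from 2.93 to 7.11, with a median of 4.91 (quartiles 3.93 and 6.14). Outside the cluster TET1 regions without CTCF had a median of 4.21 (3.61 and 4.76). In percentiles the medians were 18.9 and 10.3. All 30 stood below the median of the list, and 17, or 56.7%, were in its weakest 20%, where 79.1% of those outside the cluster stood. The 30 had a median width of 190 bp, against 222 bp for TET1 with CTCF in the cluster. The median was 184.5 bp for TET1 without CTCF outside the cluster and 197 bp for the whole TET1 list. A −log10 q under 5 was found for 13 of the 30, or 43.3%, against 74.5% outside. Of the 30, 17 had a −log10 q of at least 5, which was 32.1% of the 53 TET1 regions of the cluster past that limit (21.1% to 45.5%), against 2.60% outside. At a −log10 q of at least 10 just 1 remained among 29, or 3.45%, and its interval of 0.611% to 17.2% includes the 0.909% found outside.

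The TET1 list was divided by fold into 5 classes in the same way. In class 1, the weakest, 17 of 24 cluster regions had no CTCF, or 70.8% (50.8% to 85.1%), against 35.1% outside. In class 2 the figures were 10 of 20, or 50% (29.9% to 70.1%), against 7.62%, and in class 3 3 of 11, or 27.3% (9.75% to 56.6%), against 1.11%. Classes 4 and 5 held 9 cluster regions each, and all of them were at CTCF. Outside the cluster 3208 of 3217 in class 4 and 3261 of 3264 in class 5 were at CTCF too. These classes therefore do not set the cluster apart. The value outside lay below the interval of the cluster in classes 1, 2 and 3. Regions are not replicates and neighbours may not be independent, so this too is a description and not a test.

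**Figure D5:**
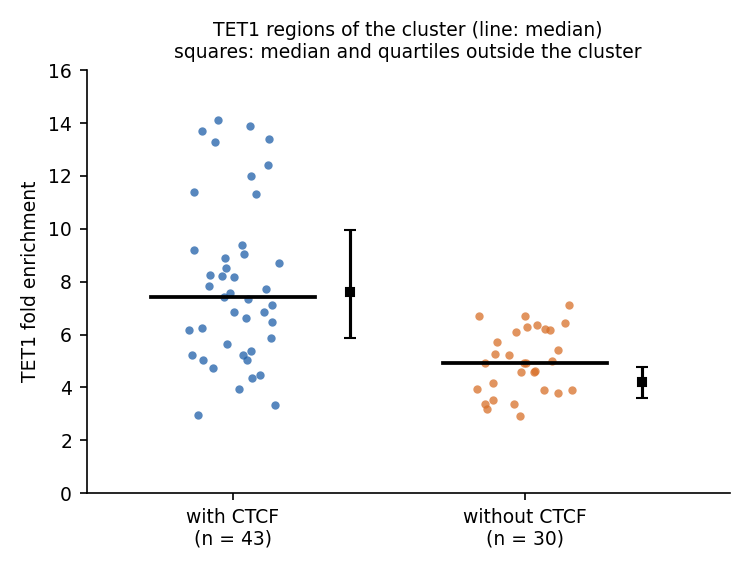
Fold enrichment of each TET1 region of the cluster, 43 with CTCF and 30 without, with the median of each group as a line. Squares with bars give the median and quartiles of the same class outside the cluster. The regions without CTCF lie between 2.93 and 7.11, and their median of 4.91 is above the 4.21 found outside.

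The 30 regions lay at very different distances from CTCF. The distance to the nearest CTCF summit had a median of 9.84 kb (quartiles 3.45 and 16.6), against 15.6 kb (4.47 and 38.05) outside the cluster. CTCF summits were themselves closer together here, at a median of 20.2 kb against 33.5 kb outside. No preference for the vicinity of CTCF is therefore read from these distances. For 15 it was above 10 kb, or 50%, against 59.97% outside. For 6 it was under 1.5 kb, or 20%, against 13.4% outside: 466 bp at 26568989 to 26569200, 556 bp at 26521393 to 26521548, 779 bp at 27446550 to 27446752, 873 bp at 26572014 to 26572283, 942 bp at 26286668 to 26286866 and 1231 bp at 28442279 to 28442492. The last of these had the highest fold of the 30, at 7.11, and a rank of 8469 among 16246. The farthest lay 58.6 kb from CTCF, at 26988154 to 26988374, with 3.91-fold enrichment.

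TET1 regions without CTCF were often neighbours of one another. The median distance between successive ones was 23.6 kb, against 942 kb on the rest of chromosome 6. Of the 29 distances 10 were 10 kb or less, or 34.5%, against 3.61% on the rest of the chromosome and 7.99% outside the cluster. A higher density, here 10.1 per Mb against 0.506, shortens distances by itself, and grouping beyond that was not tested. Of the 84 intervals between successive CTCF regions, 17 held such a TET1 region, 12 of them just 1. The other 18 regions fell into 5 intervals.

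The fullest interval ran 90.1 kb between the CTCF regions that end at 27486960 and start at 27577096, and held 7 TET1 regions. From left to right they lay at 27509505 to 27509667 (4.61-fold), 27513435 to 27513593 (3.18-fold), 27521003 to 27521231 (3.94-fold), 27559550 to 27559710 (5.40-fold), 27560573 to 27560727 (4.91-fold), 27570316 to 27570537 (2.93-fold) and 27573455 to 27573602 (4.91-fold). The third of them shared its position with an MBD3 region at 27520915 to 27521247. All 7 stood below a percentile of 25. The second fullest interval was short, 24.9 kb between 26544503 and 26569366, and held 4: at 26553596 to 26553860 (5.73-fold), 26554322 to 26554467 (3.38-fold), 26556720 to 26556880 (6.69-fold) and 26568989 to 26569200 (6.22-fold). The last of these lay beside a CTCF region that carried TET1 and MBD3.

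The longest interval without CTCF, 188 kb between 26735748 and 26923903, held 3 TET1 regions near its left end. They lay at 26745214 to 26745378 (6.44-fold), 26746955 to 26747196 (3.79-fold) and 26773781 to 26774049 (3.36-fold), the last with MBD3. Between 26286022 and 26322272 there were 2, at 26286668 to 26286866 (6.69-fold) and 26305622 to 26305873 (3.92-fold). The interval from 27182708 to 27219470 also held 2, at 27198273 to 27198487 (5.00-fold) and 27205269 to 27205476 (6.09-fold). The longer 42 of the 84 intervals, of 20.3 kb and up, held 27 of the 30 regions, and the shorter 42 held 3. The longer intervals also cover most of the sequence between CTCF regions, so these counts show no preference for long intervals. Among the longest intervals the number varied: the second longest, 185 kb between 27863613 and 28048566, held 1, at 27870679 to 27870828 (4.91-fold), and the third, of 128 kb, held none.

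The remaining single regions were spread over the cluster. In its left part they lay at 26331620 to 26331820 (5.21-fold), 26521393 to 26521548 (6.30-fold, with TET2), 26572014 to 26572283 (4.57-fold) and 26988154 to 26988374 (3.91-fold). In the middle part they lay at 27177545 to 27177725 (4.58-fold), 27302717 to 27302871 (5.25-fold), 27446550 to 27446752 (4.16-fold), 27470258 to 27470412 (3.53-fold) and 27599131 to 27599308 (6.37-fold). The last had the highest −log10 q of the 30, at 11.7. At the right end 28442279 to 28442492 (7.11-fold) and 28456733 to 28456882 (6.16-fold) stood in successive intervals.

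Few of the 30 carried another of the measured proteins. MBD3 was called at 2, or 6.67% (1.85% to 21.3%), and TET2 at 1, or 3.33% (0.591% to 16.7%), which left 27 with TET1 alone. Outside the cluster 28.4% of TET1 regions without CTCF carried MBD3, above the interval of the cluster. TET2 was carried by 13.6%, which lies within its interval. For MBD3 the share was 38.8% on the rest of chromosome 6. On gene-dense chromosome 19 it was 4 of 24, or 16.7%, inside the interval of the cluster. With 2 regions and intervals for counting error only, no difference was tested. At CTCF in the cluster, 13 of 43 TET1 regions carried MBD3, or 30.2% (18.6% to 45.1%), against 22.7% outside.

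MBD3 had 21 regions in the cluster, 8 of them without CTCF, or 38.1%, a share close to the 43.6% of its whole list. Those at CTCF were the stronger, with a median fold of 5.31 (quartiles 5.11 and 6.54) against 4.31 (4.01 and 5.04) away from it. Their summits lay a median of 18 bp from the CTCF summit, and 11 of the 13 were within 50 bp. The exceptions were 27655113 to 27655343, 193 bp away, and 27473584 to 27473772, 310 bp away. The 3 highest MBD3 regions, at 27156733 to 27156887, 26596101 to 26596363 and 27094910 to 27095097, had 7.30-, 6.996- and 6.59-fold enrichment, and each sat on CTCF of at least 42.6-fold with TET1. No MBD3 region of the cluster was in the strongest 10% of the MBD3 list. The share at CTCF, 61.9% here, was 19.05% when 50% of both regions had to overlap and 100% of the 5 regions left at −log10 q of at least 5.

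The 8 MBD3 regions away from CTCF lay 7387 bp or farther from its nearest summit. TET1 was called at 2 of them, 26773795 to 26774068 (3.70-fold) and 27520915 to 27521247 (5.61-fold), and at all 13 regions at CTCF. In the whole MBD3 list the shares with TET1 were 13.9% away from CTCF and 90.5% at CTCF. The other 6 stood alone, at 26728035 to 26728347 (4.25-fold), 26771369 to 26771609 (3.37-fold), 27059766 to 27060046 (4.94-fold), 27209327 to 27209601 (5.35-fold), 27261589 to 27261763 (4.37-fold) and 27263079 to 27263232 (4.12-fold). None of the 8 reached a −log10 q of 5. Most such regions outside the cluster were also under it, 2049 of 2873, as were 8 of the 13 MBD3 regions at CTCF in the cluster.

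TET2 had 5 regions, 1 of them without CTCF, where 64.2% of its whole list lacked CTCF. With 5 regions the interval for the share at CTCF, 37.6% to 96.4%, is wide, and its lower end is close to the 35.7% found at CTCF outside the cluster. The strongest TET2 region of the cluster was the 1 without CTCF, at 26521382 to 26521533, with 7.45-fold enrichment and a rank of 101 among 1326. It shared its position with a TET1 region, and the nearest CTCF summit was 565 bp away. At CTCF, TET2 lay at 26123338 to 26123487 (4.81-fold) and 26189211 to 26189409 (4.71-fold), both with TET1, at 27463523 to 27463733 (3.67-fold) without TET1, and at 27473501 to 27473745 (5.87-fold).

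The last of these was the only site of the cluster with all 4 antibodies, out of 140 in the whole lists. CTCF there, at 27473337 to 27473751, was weak, with 4.88-fold enrichment and a rank of 38875 among 42925, while TET1 stood at 11.4-fold with a rank of 2333 among 16246. MBD3 had 4.94-fold enrichment and TET2 5.87-fold, a rank of 278 among 1326. The summits of TET1, TET2 and MBD3 lay 289, 171 and 310 bp from that of CTCF. At the other 42 shared sites the TET1 summit lay 55 bp or less from that of CTCF.

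With IAA no region of any antibody was called in the cluster. All 85 CTCF regions were no longer called, where 99.9% of the CTCF list was lost. The same held for all 21 of MBD3 (99.8% of its list), all 73 of TET1 (99.8%) and all 5 of TET2 (99.5%). The cluster thus followed the lists as a whole, and its loss says nothing particular to it. A count of 0 kept allows a share of up to 3.53% for CTCF, 4.11% for TET1, 14.3% for MBD3 and 60% for TET2, and 1.63% over the 184 regions, for counting error only. TET1 regions away from CTCF and at CTCF shared the same outcome, 30 of 30 and 43 of 43 no longer called.

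No region called with IAA only was gained either. The lists with IAA held 63 regions of CTCF, 50 of MBD3, 325 of TET1 and 3022 of TET2, and on chromosome 6 4, 3, 16 and 123. TET2 was the densest of these, at 0.732 regions per Mb on the rest of the chromosome. The nearest TET2 regions with IAA lay 1.34 Mb before the cluster, at 24155467 to 24155645 with 5.07-fold enrichment, and 4.09 Mb after it, at 32564202 to 32564438 with 4.54-fold. For CTCF the nearest lay 5.37 Mb before and 6.84 Mb after, for TET1 14.4 Mb before and 14.6 Mb after, and for MBD3 45.8 Mb after.

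The borders of the window fell between regions. The last CTCF region before it, at 25490289 to 25490716 with 37.8-fold enrichment, shared bases with a TET1 and an MBD3 region. The first inside, at 25556680 to 25557009 with 30.0-fold, had TET1. The last CTCF region inside, at 28463969 to 28464169 with 11.1-fold, had none of the others. The first after the window, at 28510251 to 28510909 with 22.5-fold, shared bases with a TET1 region. MBD3 was sparse near the right border, with its last region inside at 28367495 to 28367673 and the next at 31105310 to 31105481.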

How the data were processed

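ChIP-seq was measured in HEK293T cells in 10 groups of 3 samples, grouped by title. Build hg19, MACS2 2.1.2, Bowtie2 2.3.4, bedtools 2.25.0, SAMtools 1.9 and FastQC 0.11.7 were listed, with no step for each, per the submitters' processing notes. The sources used here do not give the control of any list. The peak names in the deposited lists mark 3 pooled replicates. Fold enrichment is a ratio deposited by the authors, as is −log10 of the q-value, and the highest q in the lists was 0.05. The summit offset was also used as deposited.

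Rows sharing a base were joined. A joined region took the highest fold and −log10 q of its rows, with the summit of the row of highest q score. Sharing needed 1 bp in common. Python 3.11.15, NumPy 2.4.6, SciPy 1.17.1 and matplotlib 3.10.9 were used, and overlaps were checked on simulated lists. Shares carry Wilson 95% intervals, and the limit for a count of 0 is 3 counts. No test was made, since each group has 1 list and regions are not replicates. Read depth is unknown, and it decides how many weak regions are called. Named regions were every TET1 region without CTCF, the 3 of highest fold per list, every member of a class of 5 or fewer and the densest 250 kb bins. The MBD3 regions without other antibodies, the weakest CTCF region, that of highest q, the bins at the start and at 28000000, and the CTCF pairs were named after their values were seen. The members and these choices were made with earlier results of these data known. The use of pairs, the 5 classes of fold and the distance limits were chosen after seeing the data.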

Additional observations from a re-analysis of the deposited data

How the results depend on the processing

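No paired analysis was possible because each list pools the 3 samples of its group, and no sample could be left out. Over 13 alternative settings 120 values were recomputed for 16 results. Of these, 94 stayed within their interval, 1 SD over regions or a factor of 1.5. That SD was wide, 39.7 kb around a median CTCF spacing of 20.2 kb and 32.5 around a median CTCF percentile of 42.2. Staying within it therefore says little. The median CTCF percentile was 57.5 at −log10 q of at least 5, 58.8 at 10 and 55.1 at a fold of at least 5. Each was above the middle of the list so limited, where the reported value was below. No region was kept with IAA in the 8 alternatives run for that count, or called with IAA in the 6 run for that one. With limits on all lists, TET1 regions without CTCF numbered 17 at a fold of at least 5 and 3 at −log10 q of at least 10, where 29 TET1 regions were left and the median percentile of the 3 was 50.2. These limits also remove weak CTCF regions: 3 of the 17 and 2 of the 3 were TET1 regions whose CTCF region was removed. With limits on the TET1 list alone, chosen after seeing the data, the counts were 17 at −log10 q of at least 5, 1 at 10 and 14 at a fold of at least 5 (27.5% against 2.29% outside). The share without CTCF was 58.9% against 32.7% outside when 50% of both regions had to overlap. Counting a CTCF summit within 1 kb as shared, an alternative chosen after seeing the data, left 25 (34.2% against 7.88%). When 50% of both regions had to overlap, the shares at CTCF were 41.1% for TET1 and 19.05% for MBD3, and CTCF carried TET1 at 35.3% and MBD3 at 4.71%. With −log10 q of 5 or more, 5 MBD3 regions were left, 100% of them at CTCF, and 1 TET2 region, 0% at CTCF, and CTCF carried MBD3 at 7.04%. With −log10 q of 10 or more, 2 MBD3 regions were left (100% at CTCF) and 0 of TET2, 89.7% of TET1 was at CTCF, and CTCF carried TET1 at 40.0% and MBD3 at 3.08%. At a fold of 5 or more, 12 MBD3 regions (83.3% at CTCF) and 2 of TET2 (0%) were left. The cause of these shifts was not tested, though a stricter limit leaves fewer regions by construction.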
